A study of Mus musculus with 8 samples.

Results

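The REV-ERB and ROR nuclear receptors were followed over 2 days in the suprachiasmatic nucleus (SCN), the circadian pacemaker of the hypothalamus. Members were the rows of the deposited tables that bear the symbol Nr1d1 (REV-ERBα), Nr1d2 (REV-ERBβ), Rora (RORα) or Rorb (RORβ), which gave 4 of 20741 genes. The same symbols took 58 of 292239 exon rows, 38 of 176269 intron rows, 46 of 229190 junction rows and 4 of 15290 antisense gene rows. All 8 libraries came from C57/BL6 mice entrained to a light-dark cycle for weeks and then kept in darkness. Each library was polyadenylated RNA pooled from 3 mice, and 1 was made every 6 h, from hour 22 to hour 64 of the library titles. The times were taken as circadian time (CT), with 2 libraries at each of CT4 and CT10 in the subjective day and CT16 and CT22 in the subjective night. These pairs lay 24 h apart, and the submitters describe their design as without replicates. Every p-value below therefore measures the spread between pooled libraries and not between mice. The protocol text places the start of collection at CT18, whereas the first library is titled CT22.

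REV-ERB proteins are heme-binding receptors that lack the activation helix of other nuclear receptors. They repress transcription by recruiting the NCoR corepressor with the histone deacetylase HDAC3. ROR proteins bind the same DNA element, the RORE, and activate from it, and the competition between both families gives Arntl (BMAL1) its night-phased transcription. Transcription of Nr1d1 is in turn driven through E-boxes by CLOCK and BMAL1, which makes a second loop of the clock.

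The promoters of the members are shown for reference, and their part in the fitted rhythms was not tested. RefSeq promoters were found for 4 of 4 members, with 5 promoters in all since Rorb has a second, internal one. Each line gives the 250 bases before the start site, 5′ to 3′ on the gene's strand, on build GRCm38.p6, with any motif match in capitals.
Nr1d1, chr11:98775378-98775627, minus strand: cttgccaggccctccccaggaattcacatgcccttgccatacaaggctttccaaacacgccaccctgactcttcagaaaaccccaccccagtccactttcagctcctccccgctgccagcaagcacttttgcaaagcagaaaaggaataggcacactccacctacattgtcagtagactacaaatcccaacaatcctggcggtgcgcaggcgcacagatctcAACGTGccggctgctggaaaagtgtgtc
Nr1d2, chr14:18239107-18239356, minus strand: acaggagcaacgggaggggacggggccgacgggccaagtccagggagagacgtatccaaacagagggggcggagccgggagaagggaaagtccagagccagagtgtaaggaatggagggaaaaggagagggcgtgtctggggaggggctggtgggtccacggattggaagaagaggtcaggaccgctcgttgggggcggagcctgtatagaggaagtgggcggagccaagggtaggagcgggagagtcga
Rora, chr9:68653536-68653785, plus strand: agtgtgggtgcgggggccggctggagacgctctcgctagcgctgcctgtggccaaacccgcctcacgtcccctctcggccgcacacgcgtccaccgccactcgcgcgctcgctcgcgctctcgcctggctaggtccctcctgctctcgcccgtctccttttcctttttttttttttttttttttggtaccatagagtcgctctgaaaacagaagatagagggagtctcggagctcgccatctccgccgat
Rorb, chr19:19111197-19111446, minus strand: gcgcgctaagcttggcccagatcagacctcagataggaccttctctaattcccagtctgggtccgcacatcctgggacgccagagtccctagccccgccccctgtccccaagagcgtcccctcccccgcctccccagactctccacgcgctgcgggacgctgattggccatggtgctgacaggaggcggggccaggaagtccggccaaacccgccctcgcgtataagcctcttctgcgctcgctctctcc
The motifs searched on both strands were the E-box letters CACGTG and CACGTT, the RORE core letters TAGGTCA and TGGGTCA, the D-box letters TTATGTAA and TTACGTAA, and the cAMP response letters TGACGTCA. The search covered 300 bases, the 250 shown and the 50 after the start. Nr1d1 held AACGTG, which is CACGTT on the opposite strand, with its first base at -28 from the start site. The internal Rorb promoter held the same letters at -234. None of the 7 motifs was found in the windows of Nr1d2, Rora or the first Rorb promoter. Elements outside these 300 bases were not searched, so a window without a match does not show that the gene lacks the element. Among all 32851 RefSeq promoters, the letters CACGTT were held by 4.68% on either strand and CACGTG by 7.15%. The RORE core letters TAGGTCA were held by 2.61% and TGGGTCA by 3.98%. For the D-box letters the share was 0.938% with TTATGTAA and 0.119% with TTACGTAA, and for the cAMP response letters TGACGTCA it was 1.79%.

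Sense gene reads totalled 11123610 to 11131890 per library. Of the SCN marker list 12 of 12 genes were detected in every library, among them the peptides Vip at 189 to 375 CPM and Avp at 12.8 to 54.3 CPM (the gene's reads relative to the effective library size). Their summed level was 631 to 751 CPM in the dusk libraries (CT10 and CT16) and 829 to 1198 CPM in the dawn libraries (CT22 and CT4). In the 24-h test described below (edgeR), 10 of these 12 had an unadjusted p under 0.05 and 2 were called. The shares over all genes were 8.6% and 0.112%. Oligodendrocyte markers summed to 8211 to 15983 CPM in the dusk libraries and 5112 to 10548 CPM in the dawn libraries. Of these, 12 of 12 were fitted higher at dusk, against 51.4% of all genes. In the same 24-h test, 11 of the 12 oligodendrocyte markers had an unadjusted p under 0.05 and 0 were called. None of the 12 was at 0 in any library, and the sums differed up to 3.13-fold between libraries. Telencephalic markers summed to 21.3 to 60.01 CPM, thalamic markers to 53.4 to 83.8 CPM, magnocellular and arcuate markers to 65.1 to 162 CPM and astrocyte markers to 3651 to 4539 CPM.

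**Figure D1:**
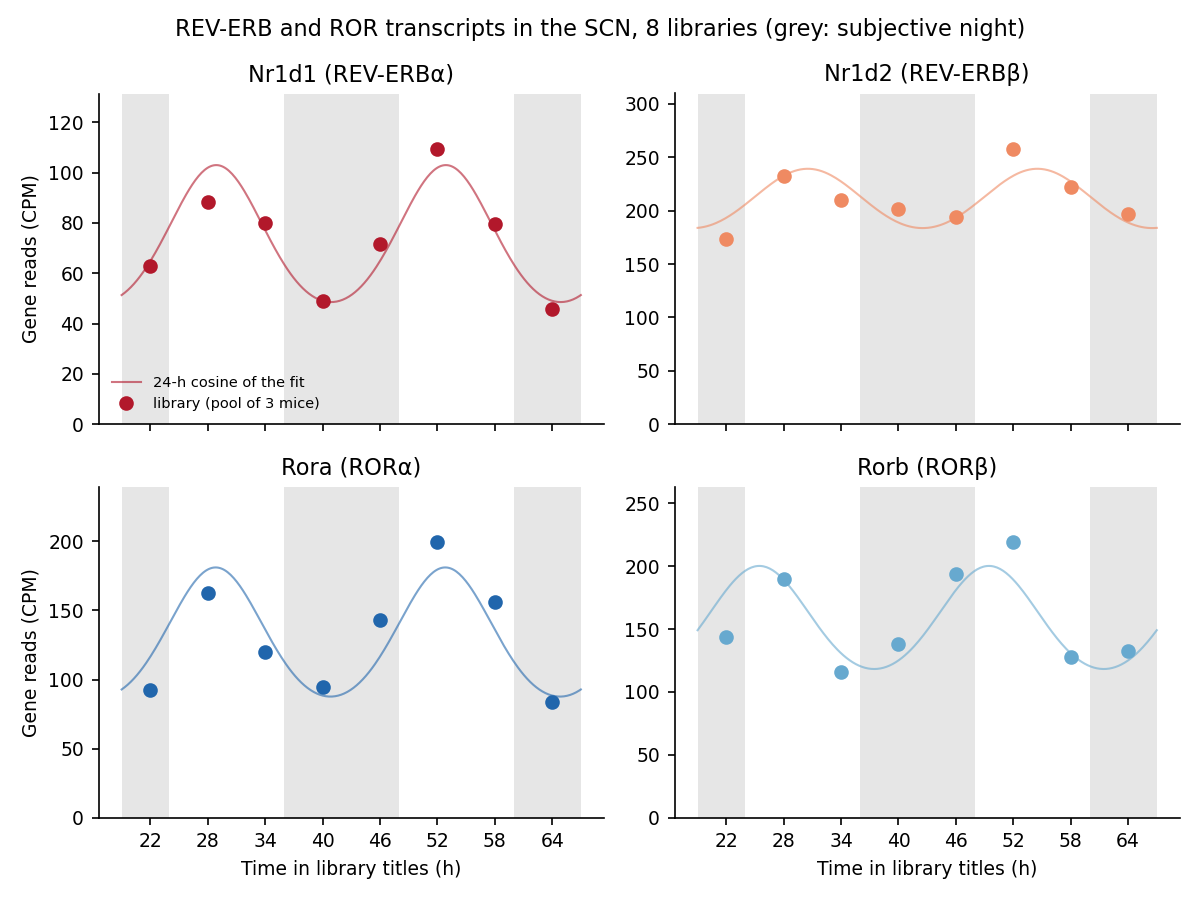
Gene reads in CPM (vertical axis) against the hour in the library titles (horizontal axis, h) for the 4 members, 1 point per library of 3 pooled mice, with the fitted 24-h cosine as a line and subjective night in grey. In each panel the points at hours 28 and 52 (CT4) are the highest of their cycle, while Nr1d1 is lowest at CT16 and Rorb at CT10 in both cycles.

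Nr1d1 and Rora had fitted rhythms of about the same size and peak time, that of Rorb was earlier, and Nr1d2 was the flattest of the members. Nr1d1 was highest at CT4 and lowest at CT16 in both cycles. It passed the test for a 24-h rhythm by edgeR's quasi-likelihood test, and the other 3 members did not. All 4 were highest at CT4 in both cycles, which held for 8.1% of the 15217 genes tested. With 17 genes called, the 24-h test called 0.112% of all genes. All 4 members had an unadjusted p under 0.05 in that test, as did 8.6% of all genes.

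Nr1d1 (ENSMUSG00000020889, mm9 chromosome 11, 98629198-98636708) encodes REV-ERBα, the best studied repressor of the family. Nr1d1 read 88.2 and 109.5 CPM at CT4, 80.1 and 79.8 at CT10, 49.1 and 45.8 at CT16, and 62.8 and 71.6 at CT22. The 4 day libraries (79.8 to 109.5 CPM) lay above the 4 night libraries (45.8 to 71.6 CPM) with no overlap. For Nr1d1 the fit gave 1.08 ± 0.14 (SE) on the log2 scale from trough to peak, a 2.12-fold change, and put the peak at CT4.89 ± 0.484 h (SE). Its adjusted p of 0.00834 by edgeR was the eighth lowest of all genes. Its day-over-night log2 ratio was 0.65 ± 0.10 (SE, adjusted p = 0.00912 by edgeR), in a test that called 16 genes or 0.105%, 11 of them or 0.0723% higher by day. Its dusk-over-dawn log2 ratio was -0.40 ± 0.10 (adjusted p = 0.310 by edgeR, 0.0496 by DESeq2 and 0.0129 by edgeR with no filter on low counts). The first of these tests called 3 genes or 0.0197%, DESeq2 39 of 11971 and edgeR with no filter 239 of 20741. With 1 library left out, the 24-h call of edgeR did not survive the loss of CT4 replicate 2 (0.0820 after adjustment) or of CT16 replicate 2 (0.0983). The day-night call was also lost without either of these, or without CT10 replicate 2 (adjusted p from 0.0537 to 0.0703, edgeR).

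Nr1d2 (ENSMUSG00000021775, mm9 chromosome 14, 19036286-19071672) encodes REV-ERBβ, which shares targets with REV-ERBα. It read 232 and 258 CPM at CT4, 210 and 222 at CT10, 201 and 197 at CT16, and 173 and 194 at CT22. The day libraries (210 to 258 CPM) were again all above the night libraries (173 to 201 CPM), by a smaller factor than for Nr1d1. Day and night libraries did not overlap for Nr1d1 and Nr1d2, 2 of the 4 members, and for 708 genes or 4.65% of all genes. Its fitted rhythm measured 0.38 ± 0.12 (SE) on the log2 scale, a 1.302-fold change, and the peak fell at CT6.52 (adjusted p = 0.520 by edgeR). The median over all genes was 0.29 log2.

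Rora (ENSMUSG00000032238, mm9 chromosome 9, 68501575-69236998) encodes RORα, an activator whose loss causes the cerebellar phenotype of the staggerer mouse. It read 163 and 199 CPM at CT4, 120 and 156 at CT10, 94.5 and 83.8 at CT16, and 92.3 and 143 at CT22. Day libraries (120 to 199 CPM) overlapped night libraries (83.8 to 143 CPM) through 1 high night value, CT22 of the second cycle. Rora was fitted with 1.05 ± 0.18 (SE) on the log2 scale, a 2.07-fold change, and a peak at CT4.83 ± 0.655 h. It missed the threshold with an adjusted p of 0.0860 by edgeR, rank 22 of all genes. DESeq2 called it (adjusted p = 6.42e-05), in a test that called 100 genes or 0.698%. edgeR called it with a term for the cycle added (adjusted p = 0.0304), but not with no scaling beyond library totals (adjusted p = 0.0816). With 1 library left out, the log2 peak-to-trough ratio of Rora was 0.940 to 1.16. The fitted second-over-first-cycle log2 ratio of Rora was 0.29 ± 0.11 (SE) and did not pass (adjusted p = 0.999 by edgeR), and at CT16 the second-cycle library was the lower one. The quasi-likelihood test of edgeR called 0 genes between the second and the first cycle, a percentage of 0, and DESeq2 called 0. Unadjusted, 543 genes or 3.57% were under 0.05 by edgeR, with Rora (0.0189) as the 1 member among them.

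Rorb (ENSMUSG00000036192, mm9 chromosome 19, 19004352-19185750) encodes RORβ, a receptor of the SCN, the retina and the pineal gland. Rorb read 190 and 219 CPM at CT4, 116 and 128 at CT10, 138 and 132 at CT16, and 144 and 194 at CT22. The 4 dusk libraries (116 to 138 CPM) lay below the 4 dawn libraries (144 to 219 CPM) with no overlap, the only member with such a gap on this axis, which 550 genes or 3.61% of all genes showed. The dusk-over-dawn log2 ratio was -0.53 ± 0.11 (SE, adjusted p = 0.267 by edgeR, 0.00427 by DESeq2, which called 39 of 11971 genes). The 24-h fit put its peak at CT1.46 ± 0.793 h and its size at 0.76 ± 0.16 (SE) on the log2 scale, a 1.69-fold change. The adjusted p was 0.203 by edgeR and 0.00629 by DESeq2. With 1 library left out, the log2 peak-to-trough ratio of Rorb was 0.649 to 0.936 and its dusk-over-dawn log2 ratio -0.660 to -0.458. The summed SCN markers were lower in the same 4 dusk libraries and the summed oligodendrocyte markers higher in most of them. Of the 12 SCN markers, 10 had an unadjusted p under 0.05 in the 24-h test of edgeR. Their sum is therefore not a fixed measure of SCN content. With the oligodendrocyte marker score as a term, an alternative chosen after seeing the data, the log2 peak-to-trough ratio of Rorb was 0.66 (adjusted p = 0.531 by edgeR), against 1.17 for Nr1d1 (adjusted p = 0.00389). The part of the SCN markers in the Rorb result was not tested. In pooled bulk tissue, fewer cells of a type and less RNA per cell cannot be told apart.

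In the authors' deposited table, the JTK rhythm test gave Nr1d1 an adjusted p of 0.000198 with a q of 0.823 and a lag of 7 h. In the same authors' deposited table, Rora had an adjusted p of 0.0220 with a q of 0.978 and a lag of 7 h. Nr1d2 had 0.125 with a lag of 8.5 h and Rorb 0.244 with a lag of 1 h in the authors' deposited table, both with a q of 1. The zero of that lag is not given in the sources used here.

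**Figure D2:**
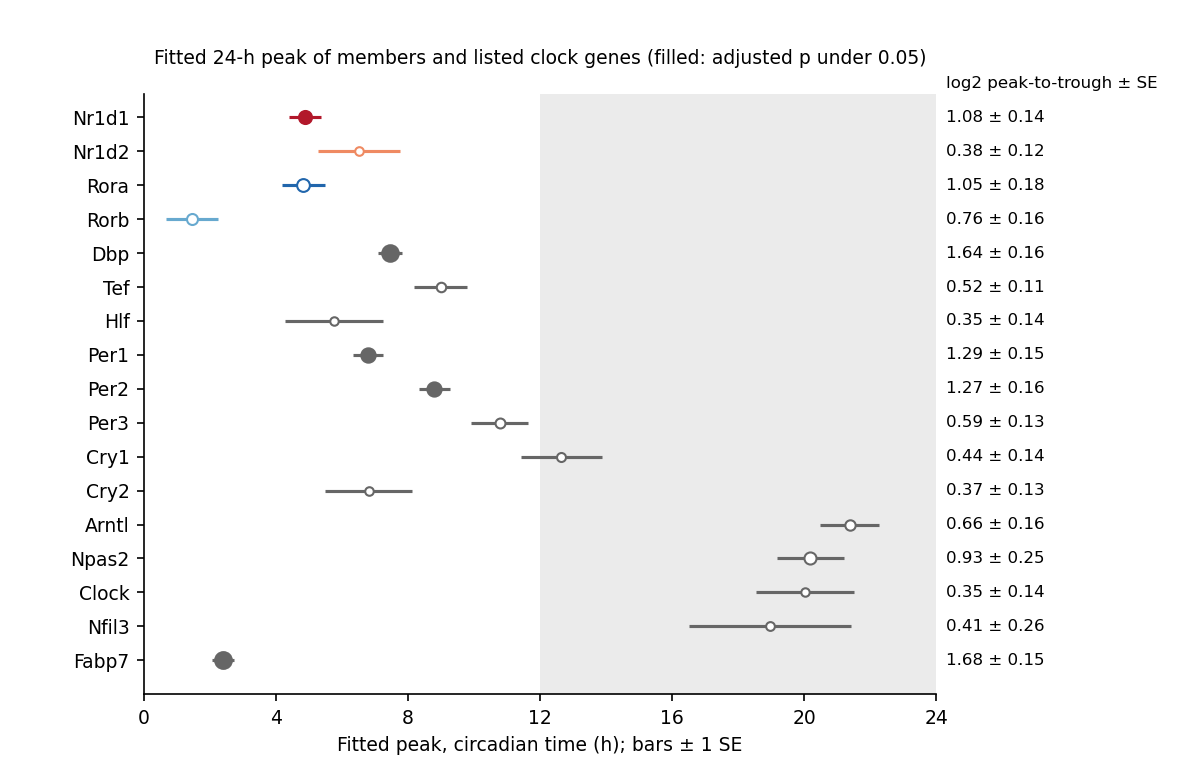
Fitted time of the 24-h peak (horizontal axis, circadian time in h, bars ± 1 SE) for the 4 members and listed clock genes, with the log2 peak-to-trough ratio ± SE at the right, marker size growing with that ratio, filled markers for an adjusted p under 0.05 by edgeR and subjective night in grey. Nr1d1 and Rora sit at CT4.89 and CT4.83 with ratios of 1.08 and 1.05, Rorb sits earlier, and Arntl, Npas2, Clock and Nfil3 sit in the subjective night.

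Ratios between members within a library do not depend on the scaling of libraries, and 7 of them were tested with an exact permutation test over the 2520 assignments of libraries to times, with the share of variance explained by a 24-h cosine of free phase as the statistic (smallest p possible 0.00317). Nr1d1 over Rora was 0.542 and 0.549 at CT4, 0.670 and 0.512 at CT10, 0.519 and 0.546 at CT16, and 0.681 and 0.499 at CT22. It did not follow time beyond the spread between cycles (exact permutation p = 0.965, adjusted p = 0.965, log2 peak-to-trough ratio 0.03). This ratio of gene reads spanned 0.499 to 0.681, while the fitted change of each gene was 2.12-fold for Nr1d1 and 2.07-fold for Rora. Of the exon reads of Rora, 98.7 to 99.8% lay on its mostly noncoding last exon, so the ratio compares unlike parts of both genes. Protein was not measured.

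Nr1d1 over Nr1d2 was 0.380 and 0.424 at CT4, 0.382 and 0.359 at CT10, 0.244 and 0.233 at CT16, and 0.363 and 0.369 at CT22. Both CT16 libraries were below the other 6 (exact permutation p = 0.0190, adjusted p = 0.0444, log2 peak-to-trough ratio 0.75). Rora over Rorb was 0.859 and 0.910 at CT4, 1.03 and 1.22 at CT10, 0.683 and 0.634 at CT16, and 0.642 and 0.739 at CT22. All 4 day values were above the 4 night values (exact permutation p = 0.0190, adjusted p = 0.0444, log2 ratio 0.82 with a peak at CT7.92).

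Nr1d2 over Rorb was 1.22 and 1.18 at CT4, 1.82 and 1.74 at CT10, 1.45 and 1.49 at CT16, and 1.21 and 1.001 at CT22. The dusk libraries were all above the dawn libraries (exact permutation p = 0.00635, adjusted p = 0.0444, log2 ratio 0.75 with a peak at CT11.5). Nr1d1 over Rorb (adjusted p = 0.0778), Nr1d2 over Rora (0.0889) and the summed REV-ERB over the summed ROR reads (0.0844) did not pass the exact permutation test after adjustment over the 7 ratios. The summed ratio spanned 0.788 to 1.23. With 1 library left out, from 0 to 4 of the 7 ratios passed. Rora over Rorb passed in 1 of 8 leave-outs, that of CT22 replicate 2, and its adjusted p otherwise reached up to 0.0889. Nr1d1 over Nr1d2 passed in 3 of 8, those of CT4 replicate 1, CT10 replicate 1 and CT22 replicate 2, and in the other 5 its adjusted p reached up to 0.0889. Nr1d2 over Rorb passed in 7 of 8 and was lost without CT16 replicate 2 (exact permutation, adjusted p = 0.0593).

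**Figure D3:**
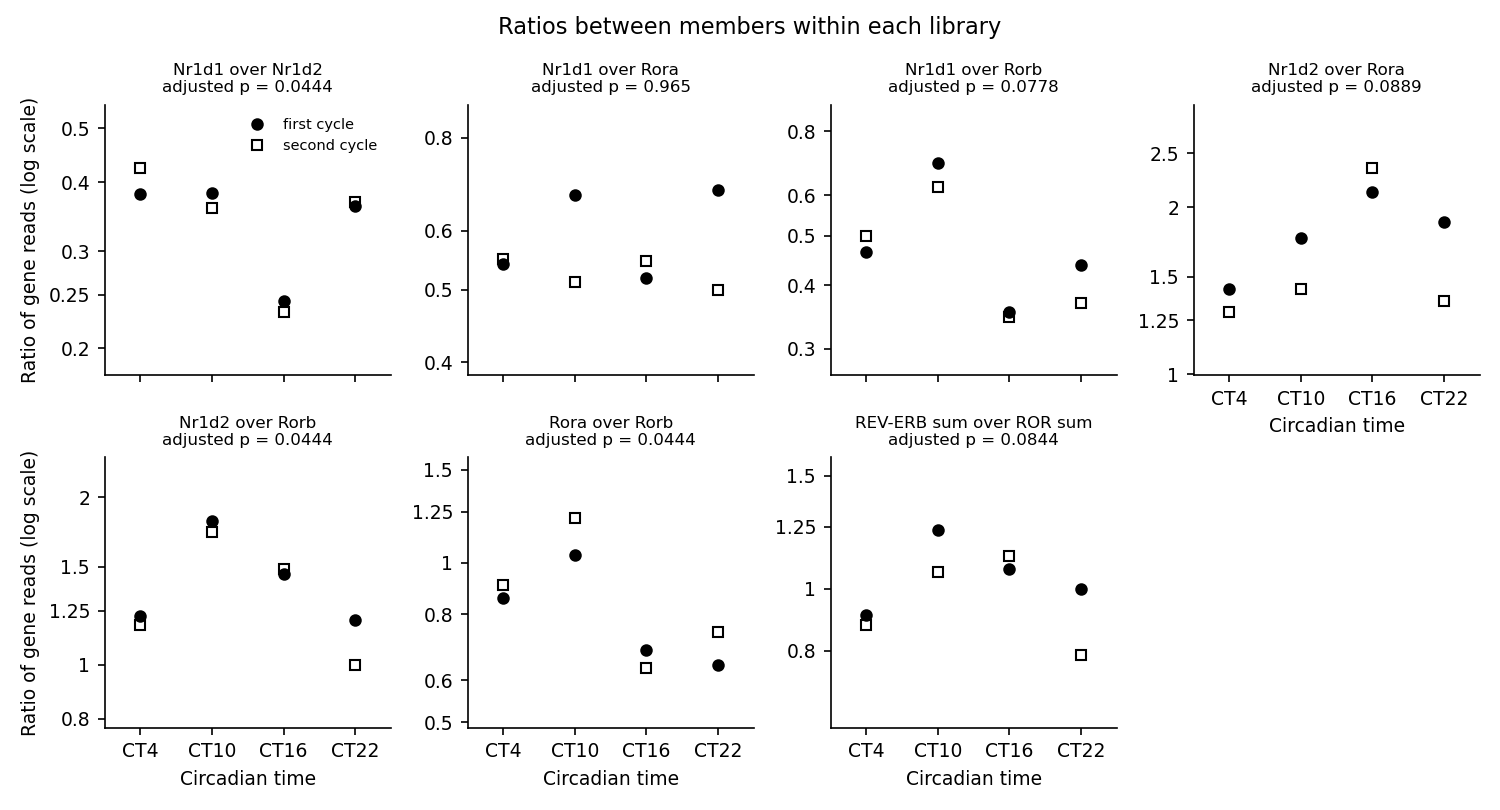
Ratio of gene reads between members within each library (vertical axis, log scale) by circadian time, with the first cycle as filled circles and the second as open squares, and the adjusted exact permutation p above each panel. Nr1d1 over Nr1d2 drops at CT16 in both cycles to 0.244 and 0.233, while Nr1d1 over Rora shows no common course in the 2 cycles.

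The reads of Rora and Rorb came almost entirely from the last exon, so their gene values describe that exon. The last exon of Rora (mm9 chromosome 9, 69226604-69236998, 10395 bases) held 98.7 to 99.8% of the exon reads of the gene, from 958 to 2141 reads per library, against 2 to 29 reads on its 11 other exons together. The last exon of Rorb (chromosome 19, 19004352-19012525, 8174 bases) held 96.8 to 98.9%, with 16 to 49 reads on all others. Per base, these last exons were read 23.2 and 24.2 times as densely as the other exons of Rora and of Rorb. The median over 5148 genes with at least 5 exons and a mean of at least 500 reads was 1.04, with a 95th percentile of 6.66. Among 424 such genes with a last exon of at least 5000 bases, the median was 3.38 and the 95th percentile 42.5.

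Within those last exons the reads lay away from the splice site. The exon row of the first 1114 bases of the Rora exon (69226604-69227717) held 1 to 16 reads per library. For Rorb the first 1620 bases on the minus strand (19010906-19012525) held 5 to 19. In the GENCODE transcripts matched to the members, 98.3% of the last exon of Rora and 97.9% of that of Rorb is noncoding, which makes it mostly 3′ untranslated. Every exon of Rora and Rorb before the last had 0 to 18 reads per library, and their isoforms, which differ in the first exons, could not be compared between times at this depth.

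Nr1d1 and Nr1d2 were read along the whole transcript or most of it. The last exon of Nr1d2 (chromosome 14, 19036286-19039395, 3110 bases) held 82.1 to 87.5% of its exon reads, at 3.55 times the density of its other exons. The last exon of Nr1d1 (chromosome 11, 98629198-98629733, 536 bases) held 8.23 to 13.2%, at 0.466 times that density. Levels per length therefore rest on different parts of the genes. The exons of Nr1d1 before the last together held up to 1405 reads in a library, above its highest gene count of 1217. Exon and gene reads were thus not counted alike, and these shares and densities hold for the exon counts only. How a read that spans 2 exons was counted is not given. In CPM per kb of exon, Nr1d2 ranged from 34.8 to 51.9 with a median of 41.3, Nr1d1 from 16.2 to 38.7 with a median of 26.7, Rorb from 9.70 to 18.4 with a median of 11.8, and Rora from 6.42 to 15.3 with a median of 10.1. Each range overlapped the next one in that order. Within a library, Nr1d2 was above Nr1d1 and Nr1d1 above Rorb in 8 of 8, and Rorb above Rora in 7 of 8.

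**Figure D4:**
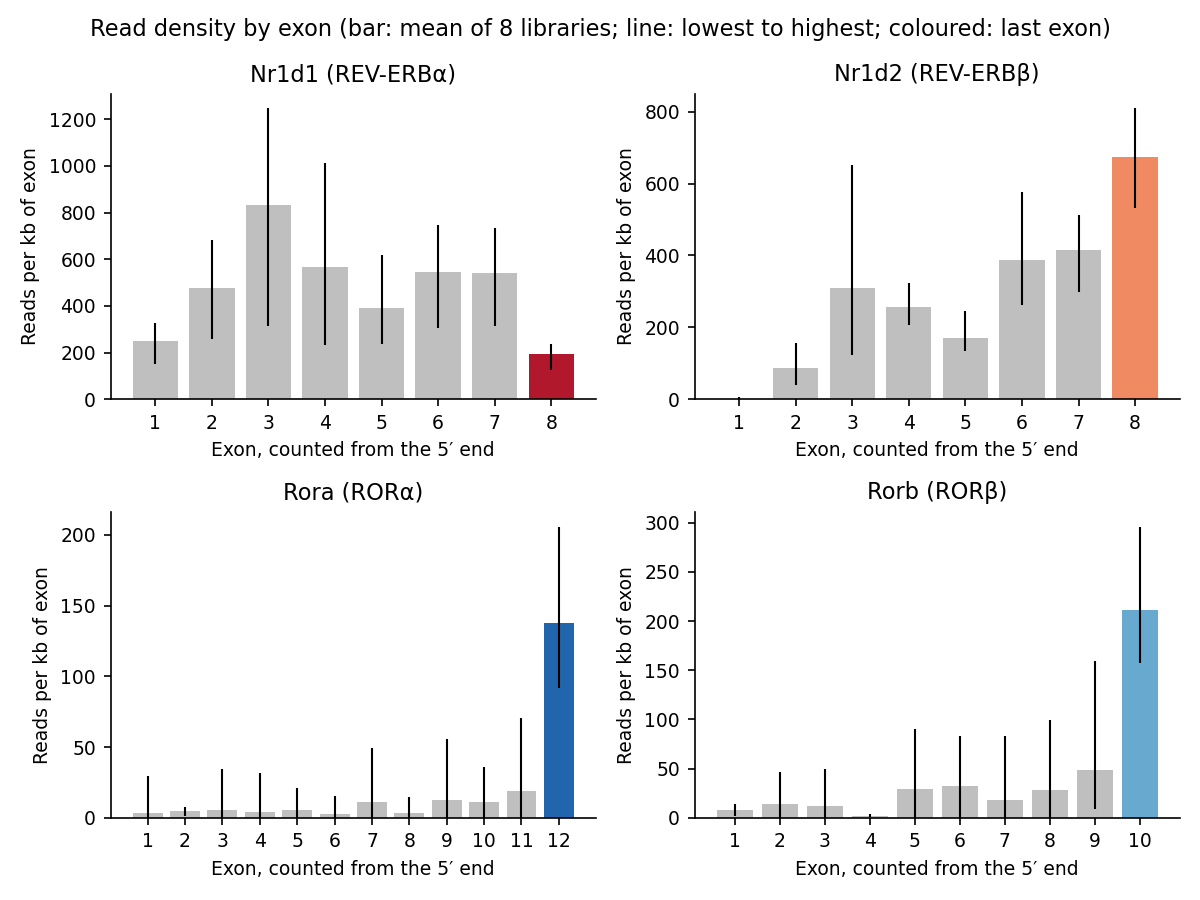
Reads per kb (vertical axis) of each exon, counted from the 5′ end (horizontal axis), for the 4 members, with bars for the mean of 8 libraries, lines from the lowest to the highest library and the last exon in colour. Nr1d1 is covered from its first exon on, whereas Rora and Rorb are read almost only on the last exon, at 92.2 to 206 and 158 to 296 reads per kb.

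No single exon or junction of a member passed the 24-h test. The last exon of Rora had a fitted log2 ratio of 0.97 ± 0.18 (SE) with a peak at CT4.77 (adjusted p = 0.197 by edgeR), and that of Rorb 0.72 ± 0.16 with a peak at CT1.65 (adjusted p = 0.424). The fifth exon of Nr1d1 (98631502-98632145), the member exon with the lowest p, had 1.28 ± 0.19 with a peak at CT5.17 (adjusted p = 0.0538). Among 29 member exon rows tested, 0 passed, where 23 exons or 0.0125% of all passed. Unadjusted, 16 of the 29 were under 0.05, against 5.95% of all exons. Some rows overlap and hold identical counts, so the 29 rows give 24 distinct profiles of counts and the 16 give 14. With scaling factors computed on the exon table, 1 member exon passed, where 25 exons or 0.0136% of all passed. Of 13 member junctions 0 passed (lowest adjusted p = 0.798 by edgeR), where 14 or 0.0179% of all passed, and 4 had an unadjusted p under 0.05, against 5% of all junctions. In the exon usage test of edgeR, which asks whether an exon moves apart from the rest of its gene, 0 of the 34 member tests passed, against 5 of 212580 or 0.00235% over both terms. Unadjusted, 2 of the 34 were under 0.05, against 2.55% of all exon usage tests, the lowest being 0.0365 for the second exon of Nr1d2.

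Intron reads, taken as a measure of unspliced RNA, changed over the day for Nr1d1, and those of the other members did not pass the test. Some summed introns overlap exon rows of the same gene, so their reads need not all be unspliced. Among these are the introns of Nr1d1 at 98630574-98631016 and of Nr1d2 at 19044479-19047387, and the Rora intron of 542102 bases. The part of such exons in the intron reads was not tested. The 7 introns of Nr1d1 summed to 244 and 305 reads at CT4, 156 and 171 at CT10, 93 and 97 at CT16, and 155 and 220 at CT22. The CT4 libraries were the highest and the CT16 libraries the lowest in each cycle. The Nr1d1 introns changed by 1.52 ± 0.22 (SE) on the log2 scale and peaked at CT3.46 ± 0.539 h (adjusted p = 0.00370 by edgeR), in a test that called 36 of 14158 genes or 0.254%. The call was lost without CT4 replicate 2 (adjusted p = 0.0792) or CT16 replicate 2 (0.0507).

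The fitted peak of the gene was later, at CT4.89. Intron over gene reads of Nr1d1 were 0.248 and 0.251 at CT4, 0.173 and 0.193 at CT10, 0.173 and 0.189 at CT16, and 0.221 and 0.279 at CT22. This ratio had an exact permutation p of 0.0476 and an adjusted p of 0.190 over 4 members, which did not pass. Without the Nr1d1 intron opposite Thra, an alternative chosen after seeing the data, the exact permutation p was 0.105 and the adjusted p 0.419. Library totals were nearly equal within the gene table and within the intron table, and how this came about was not tested.

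Nr1d2 introns summed to 60 to 105 reads, 492 of 671 of them in the intron at 19044479-19047387, with a log2 peak-to-trough ratio of 0.52 ± 0.27 (adjusted p = 0.663 by edgeR). Rora introns held 176 to 324 reads, most in an intron of 542102 bases, and the summed introns of Rora had a fitted ratio of 0.34 ± 0.22 log2 (adjusted p = 0.762). Rora intron reads were 303 and 224 at CT4, 321 and 176 at CT10, 217 and 265 at CT16, and 324 and 290 at CT22, an order unlike that of the gene reads. Rorb introns held 13 to 39 reads (0.77 ± 0.51 log2, adjusted p = 0.746 by edgeR). Of overlapping introns, the row with the most reads was summed. When every intron that overlaps another was dropped, an alternative chosen after seeing the data, 2 of 6 introns of Rora remained and the gene was no longer tested. The ratio of Rorb was then 0.02 log2 over 6 of its 7 introns, and that of Nr1d1 1.52 (adjusted p = 0.00446 by edgeR).

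**Figure D5:**
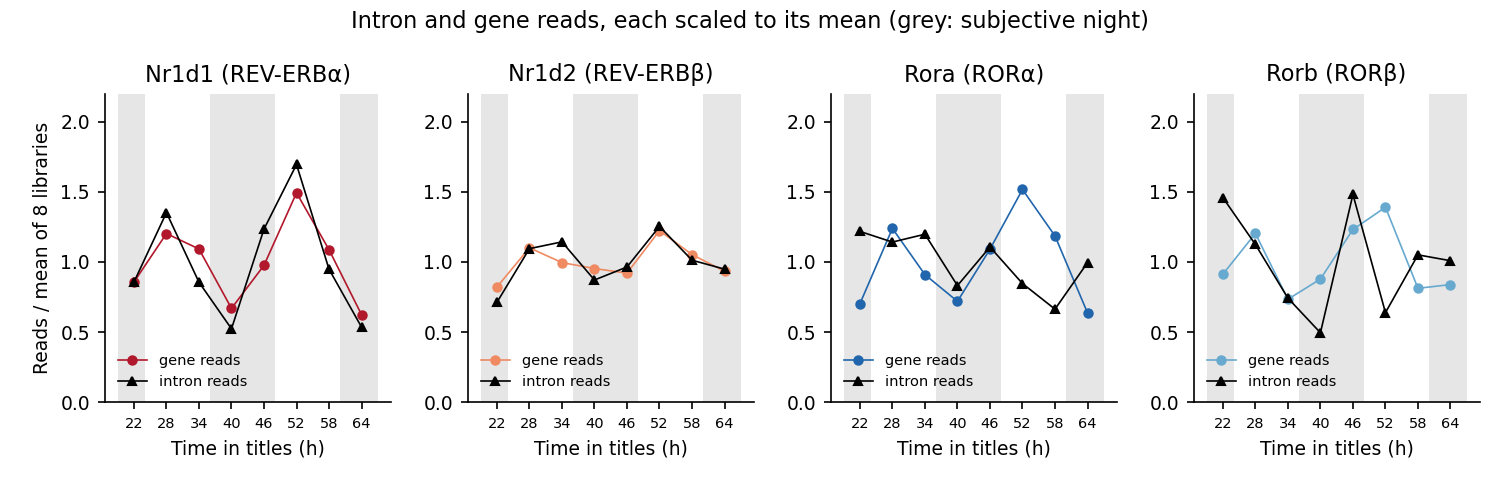
Summed intron reads (black triangles) and gene reads (coloured circles), each scaled by effective library size and divided by its mean over 8 libraries (vertical axis), against the hour in the library titles (horizontal axis, h), subjective night in grey. For Nr1d1 both curves are highest at hours 28 and 52, whereas for Rora the intron reads do not follow the gene reads.

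Nr1d1 and Thra, the gene of the thyroid hormone receptor α, lie tail to tail and share 1208 bases on mm9. Thra read 346 to 448 CPM with a log2 peak-to-trough ratio of 0.06 ± 0.13 (adjusted p = 0.974 by edgeR), and its last exon (98629471-98630405) held 931 to 1375 sense reads per library. The last intron of Nr1d1 (98629734-98630362) lies opposite that exon. It had 571 to 960 reads on the Thra strand and 28 to 109 on its own. On the strand of Nr1d1, the Thra last exon had 222 and 236 reads at CT4, 183 and 146 at CT10, 102 and 95 at CT16, and 159 and 161 at CT22, lowest at CT16 like Nr1d1 itself. Without that intron, the Nr1d1 intron rhythm had a log2 ratio of 1.57 (adjusted p = 0.0215 by edgeR). In the antisense gene table, 3 of 4 members passed the read filter and 0 were called by edgeR, where 0 of 3693 genes, a percentage of 0, were called and 128 or 3.47% had an unadjusted p under 0.05, none of them a member. Nr1d1 had 23 to 50 antisense reads per library in that table and Nr1d2 2 to 28. The last exon of Nr1d1 alone had 284 to 517 reads on the opposite strand, so its antisense gene count does not hold all of these.

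Known targets of the receptors were listed with earlier results in view and are described by count and median. Of 11 tested REV-ERB and ROR target genes, 1 passed the 24-h test of edgeR and 10 did not, where 0.112% of all genes passed. Unadjusted, 5 were under 0.05 against 8.6% of all genes. The median log2 peak-to-trough ratio of the list was 0.41 against 0.29 over all genes. The gene that passed was Fabp7, a brain fatty-acid-binding protein of astroglia. It read 87.3 and 90.2 CPM at CT4, 43.0 and 33.0 at CT10, 28.8 and 32.9 at CT16, and 63.6 and 58.9 at CT22. Fabp7 peaked at CT2.39 with a log2 ratio of 1.68 ± 0.15 (adjusted p = 0.000188 by edgeR), earlier in the day than Nr1d1. Arntl, the clock's activator and the classic RORE target, read 45.0 and 39.4 CPM at CT4, 32.6 and 36.9 at CT10, 50.01 and 40.9 at CT16, and 48.7 and 60.7 at CT22. The Arntl peak was fitted at CT21.4 with a log2 ratio of 0.66 ± 0.16 (adjusted p = 0.319 by edgeR). Npas2, a CLOCK paralogue, had a fitted peak at CT20.2 with 0.93 ± 0.25 log2 (adjusted p = 0.385). Elovl3 was 1 of 12 listed targets and was not tested.

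Among the E-box genes listed as the loop upstream of the REV-ERBs, 3 of 11 passed the 24-h test of edgeR, Per1, Per2 and Gm129, and all 3 were higher by day. Unadjusted, 8 of the 11 were under 0.05, against 8.6% of all genes, and the test called 0.112% of all genes. Their log2 peak-to-trough ratios were 1.29 for Per1, 1.27 for Per2 and 1.60 for Gm129, and the fitted peaks CT6.79, CT8.80 and CT8.39 all followed that of Nr1d1 at CT4.89. The order of these peaks was not tested. With 1 library left out, Per1, Dbp and Fabp7 were called in 8 of 8 fits, Per2 in 7, the exception being the fit without CT10 replicate 2 (adjusted p = 0.121 by edgeR), and Gm129 in 6, the exceptions being those without CT10 replicate 1 (0.117) or CT10 replicate 2 (0.137). The D-box list had 2 of 4 under an unadjusted 0.05 and 1 called, Dbp at CT7.46 with a log2 ratio of 1.64 ± 0.16 (adjusted p = 0.000317 by edgeR), while its paralogue Tef had 0.52 ± 0.11 (adjusted p = 0.214) and Hlf 0.35 ± 0.14 (adjusted p = 0.595).

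Partners of the receptors passed no test in the 24-h fit, which called 0.112% of all genes and put 8.6% under an unadjusted 0.05. Of 6 genes of the corepressor complex 0 passed and 0 had an unadjusted p under 0.05, and Ncor1 and Hdac3 read 121 to 151 and 128 to 165 CPM with fitted ratios of 0.19 log2 each. Of 9 coactivators and cofactors 0 passed and 0 were under an unadjusted 0.05, with a median ratio of 0.26 log2 against 0.29 for all genes. Of 12 genes of heme synthesis and breakdown 0 passed either way, 11 were fitted higher by day with a median day-over-night ratio of 0.08 log2, and 48.0% of all genes were fitted higher by day. Of 6 tested factors of REV-ERB protein stability 0 passed, 1 had an unadjusted p under 0.05, the lowest p being that of the ubiquitin ligase Huwe1 with a log2 ratio of 0.37 ± 0.12 (adjusted p = 0.507 by edgeR).

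The genes most like each member were those with the highest Pearson r of log2 CPM over the 8 libraries among 11901 genes with a mean of at least 5 CPM. The r values are descriptions over 8 libraries that share depth and dissection, and no test was made. For Nr1d1 these were Coq10b (r = 0.980), H3f3b, Plk2, Pfdn4 and Med12, and for Rora Heatr5b (r = 0.977), Ankra2, Plk2, Pldn and Sfxn3. Plk2, a polo-like kinase, stood on both lists. For Nr1d2 the list opened with Hlf (r = 0.953), a D-box activator, followed by Pdcd10, Cnpy2, 2010012O05Rik and A930017M01Rik. Rorb had Setd5 (r = 0.984), Adrbk2, Zmym3 and Nfat5, fitted to peak between CT0.979 and CT1.67. None of these genes was called rhythmic by edgeR. Between members, r was 0.925 for Nr1d1 with Rora, 0.822 for Nr1d2 with Rora, 0.732 for Nr1d1 with Nr1d2 and 0.467 to 0.659 for Rorb with the others.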

How the data were processed

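Polyadenylated RNA was made into strand-specific libraries, per the labels' protocols. The submitters' processing notes name STAR 2.3.0e and build mm9. How reads were counted, and whether and how depth was equalised, is not given in the sources used here. The authors deposited whole-number read counts for each gene, antisense gene, intron, exon and junction. Library totals were nearly equal for all but the junctions, which totalled 3196136 to 3437120 reads. Per the file headers, the tables also give p-values, q-values and lags (h) of a JTK test. No column was left without a sample (0). The times come from titles; replicate 1 is the first cycle and replicate 2 the second, an own numbering that pairs nothing.

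Counts were fitted with edgeR 4.0.16 (quasi-likelihood F test, TMM scaling) in R 4.3.3 on whole tables, for features with at least 10 reads in at least 2 libraries, with Benjamini-Hochberg adjustment at 0.05. A day-night and a dusk-dawn term, both coded by time, form a 24-h cosine of free phase with 5 residual degrees of freedom. Other tables used the library sizes of the gene table. Introns that bore 1 symbol were summed per gene, keeping of overlapping ones the row with the most reads. Ratios were tested by exact permutation. DESeq2 1.42.0 and other scalings, filters and leave-outs were alternatives. Members and lists were chosen with earlier results of these data known. Named genes were the members, Thra, up to 3 genes per list with the lowest p and 5 like genes per member, less some genes that are not reported here; marker and other clock genes beside these were named after their values were seen. The tests were tried on simulated data with known changes. With 1 spread for all genes, the 24-h test recovered 7.46% of simulated rhythms of 0.5 log2 from trough to peak. It recovered 71.6% of those of 1 log2 and 100% of those of 2 log2, with 4 false calls. Not passing therefore does not show that a gene is flat. Gene spans and exons are mm9, promoters GRCm38.p6 from RefSeq.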

Additional observations from a re-analysis of the deposited data

Results flagged for a closer look

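Reads on the strand opposite the last intron of Nr1d1 numbered 571 to 960 per library, in a table of antisense intron reads that no comparison used. The intron lies within the last exon of Thra, which is transcribed from that strand. With 2 libraries at each circadian time, none was tested as standing apart from its group.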

How the results depend on the processing

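Total gene reads were nearly equal between libraries, and every call rests on 2 libraries per time. Fitted peaks of the members moved by less than 6 h under every alternative run on gene reads, so that no 24-h result of a member gene turned round. The labels carry no replicate numbers. A fit blocked by cycle, in which libraries of 1 day share a term, added Rora to the 24-h calls (adjusted p = 0.0304 by edgeR) and to the day-night calls (0.0353).

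Members called among the 4 by the 24-h test numbered 2 with a cycle term, 3 with no filter on low counts, 3 with DESeq2 and 0 to 3 over the leave-outs. For day against night these were 2 with a cycle term, 2 with no filter, 2 with DESeq2 and 0 to 2 over the leave-outs, and for dusk against dawn 3 with no filter, 2 with DESeq2 and 0 to 1 over the leave-outs. Introns had 0 to 1 member called over the leave-outs. Member exons called were 1 with scaling on the exon table, 8 with no filter and 0 to 1 over the leave-outs. Ratios past the threshold numbered 0 to 4 over the leave-outs. With a cycle term, the 24-h test called 21 of 15217 genes and day against night 17. The member exons with no filter were 8 of 58 rows tested. Counts over all features in the other settings follow. The cause of these changes was not tested.

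Over all features, the 24-h gene test called 362 with no filter, 100 with DESeq2 and 7 to 43 over the leave-outs. Day against night called 137 with no filter, 60 with DESeq2, 34 with the oligodendrocyte term and 4 to 28 over the leave-outs. Dusk against dawn called 6 with a cycle term, 239 with no filter, 39 with DESeq2 and 3 to 60 over the leave-outs. The cycles differed in 2 genes with no filter and 0 to 2 over the leave-outs. Antisense genes called were 1 with scaling on that table, 3 with no filter and 0 to 1 over the leave-outs. Introns gave 240 with no filter and 4 to 75 over the leave-outs, exons 2038 with no filter and 14 to 207, junctions 7 with scaling on that table, 238 with no filter and 0 to 64, and exon usage 8 with at least 30 reads and 0 to 59. Features tested with no filter were 20741 genes, 15290 antisense genes, 19182 genes by introns, 292239 exons and 229190 junctions. DESeq2 gave an adjusted p to 14331 genes for the 24-h and day-night tests and to 11971 for dusk against dawn. The cycle and oligodendrocyte terms were fitted to 15217 genes. Scaling on the own table covered 3693 antisense genes and 78212 junctions, and exon usage with at least 30 reads 132040 tests. The cause was not tested.

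The dusk-over-dawn log2 ratio of Nr1d2, -0.03 in the fit reported, was 0.0159 with the oligodendrocyte term and -0.100 to 0.0163 over the leave-outs. The day-over-night log2 ratio of Rorb, 0.06 in the fit reported, was -0.0537 to 0.142 over the leave-outs. The log2 rhythm of Nr1d1 over Rora moved its fitted peak by more than 6 h in 2 leave-outs (range 0.0182 to 0.234), and that of Rorb intron over gene reads in 1 (range 0.345 to 1.11). The oligodendrocyte term, the dropping of overlapping introns and the leaving out of the Nr1d1 intron opposite Thra were chosen after seeing the data.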
